A study of Arabidopsis thaliana with 16 samples.

Results

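Activation of LBD16 in auxin-treated roots was examined by comparing the NAA+DEX group with the NAA group, both without cycloheximide. These are 4 of the 16 arrays of the series, 2 in each group, and they were chosen by their treatment labels. The series measured transcripts of Arabidopsis thaliana roots, from seedlings 5 days old, on single-channel Affymetrix arrays, and all 8 groups of 2 arrays share one genotype. Every plant carried gLBD16:GR, a fusion of LBD16 to the glucocorticoid receptor driven by the regulatory region of LBD16 itself, in the lbd16-1 lbd18-1 lbd33-1 triple mutant. Plants without the fusion were not used here, so a response of roots to the steroid itself cannot be told apart from a response to LBD16.

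The NAA+DEX roots had received 1 µM NAA, a synthetic auxin, together with 2 µM dexamethasone (DEX) for 4 h, and the NAA roots had received the NAA for the same time without DEX. Set beside them were the DEX roots (2 µM DEX without NAA) and the mock roots, which had solvent alone. The NAA+DEX+CHX and NAA+CHX roots had NAA with and without DEX in the presence of 10 µM cycloheximide (CHX), which blocks protein synthesis. By the labels, the 2 mRNA samples of each treatment were independent sets. The p-values therefore speak only for the spread among these samples. In whole roots, fewer cells of a type and less RNA per cell cannot be told apart.

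LBD16 is a transcription factor of the LOB-domain family that acts at the start of lateral root formation, when a pair of pericycle founder cells divides asymmetrically. Auxin induces it through the response factors ARF7 and ARF19, together with its relatives LBD18, LBD29 and LBD33. A glucocorticoid receptor fusion is held in the cytoplasm until a steroid such as DEX releases it into the nucleus. Because the fusion is under the LBD16 control region, auxin can raise the amount of fusion transcript as well as the amount of its targets.

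The arrays compared had been scaled to the same overall brightness. The trimmed mean was 500 on every array, which the scaling of the deposited values fixed in advance. Median intensities were 167.5 and 170.5 in NAA+DEX roots, against 173.8 and 174.7 in NAA roots, and so slightly lower with DEX, without overlap. The part of this offset in the counts of higher and lower probe sets was not tested beyond the other scalings given at the end. The SD of the log2 difference between the 2 arrays of a group was 0.41 for NAA+DEX and 0.394 for NAA, within a range of 0.38 to 0.461 over the 8 groups. Signal ratios of the 3′ to the 5′ control probe sets of GAPDH, which report on RNA integrity and labelling, were 1.14 and 1.27 in NAA+DEX roots and 1.06 and 1.29 in NAA roots. Those of ubiquitin were 2.88 and 2.97 in NAA+DEX roots, against 2.1 and 2.54 in NAA roots, without overlap, and those of actin were 18.0 and 24.9 in NAA+DEX roots, against 26.3 and 17.6 in NAA roots. Actin ratios stood far above those of the other control genes on every array of the series, at 11.1 to 26.3. A high ratio means that the 5′ end was read weakly beside the 3′ end. The part of these ratios in the results was not tested. The 5 measured photosynthesis genes, which mark shoot tissue, summed to intensities of 540.1 and 517.6 in NAA+DEX roots, against 629.0 and 699.0 in NAA roots. None of the 5 passed the test, although all 5 log2 changes were below 0, and the part of shoot tissue in the results was not tested.

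With DEX added to auxin, 667 of the 22746 probe sets changed at adjusted p under 0.05 (limma, Benjamini-Hochberg over all probe sets), which is 2.93% of those tested. Of these, 277 were higher in NAA+DEX roots (1.22%) and 390 were lower (1.71%). The changes were of moderate size in both directions. The median size was 1.05 on the log2 scale among the higher probe sets and 1.04 among the lower ones, 363 changed at least 2-fold (1.6% of all tested) and 61 at least 4-fold. Over all probe sets the median log2 change was -0.0155, and 52.3% of them lay below 0. All folds are on the scale of log2(intensity + 16), which understates the change of dim probe sets. Both group means lay under an intensity of 50 for 61 of the called probe sets, while 196 had a group mean over 1000.

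**Figure D1:**
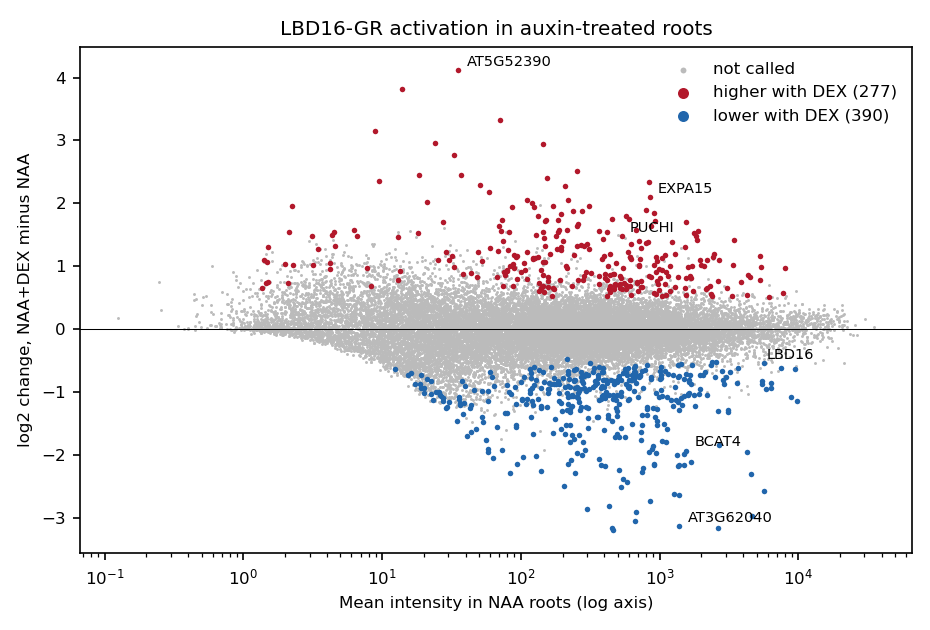
Log2 change of each probe set (vertical axis, NAA+DEX minus NAA) against its mean intensity in NAA roots (horizontal log axis). Red points are the 277 probe sets called higher, blue points the 390 called lower and grey points those not called. Called probe sets span a wide range of brightness, and AT5G52390 stands highest among the labelled genes while AT3G62040 stands lowest.

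The number of calls depended on single arrays. Without NAA replicate 1 it was 290, without NAA replicate 2 it was 362, without NAA+DEX replicate 1 it was 352 and without NAA+DEX replicate 2 it was 406. In each of these fits the remaining lone array was taken to vary like the other groups. There were 217 probe sets called in all 4 of these fits, 101 higher and 116 lower. A model of the 4 arrays alone, without the spread of the other groups, called 61, all of them among the 667 and in the same direction.

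Among genes of lateral root formation, PUCHI stood out. It encodes an AP2/ERF factor that acts in young primordia. PUCHI had intensities of 1520 and 1513 in NAA+DEX roots, against 495.2 and 572.6 in NAA roots. The groups were well apart, and PUCHI rose 2.79-fold (log2 change 1.48, SE 0.149, adjusted p = 0.00035). It passed with each array left out in turn but not in the model of the 4 arrays alone (adjusted p = 0.063). Among the 4 measured genes of the lateral root list it was the 1 that was called (25%, beside 2.93% of all probe sets), and none was called lower. Like the other lists, this list held genes matched by name or synonym, which can leave out relatives listed by locus alone. All lists were chosen with earlier results of these data known. A share above that of all probe sets therefore cannot show that a list responded more than other genes. The lists also count 1 probe set a gene, whereas the share of all probe sets includes those with no listed gene. CR4, a receptor kinase gene of the same list, had a log2 change of 0.29 (SE 0.317).

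The LBD genes themselves did not pass. The LBD16 probe set had intensities of 4003 and 3081 in NAA+DEX roots, against 5217 and 5073 in NAA roots, a log2 change of -0.55 (SE 0.151, adjusted p = 0.088). LBD29 had 3695 and 4266 in NAA+DEX roots, against 6021 and 6701 in NAA roots, a log2 change of -0.68 (SE 0.185, adjusted p = 0.087). In both genes the DEX arrays lay below the auxin-only arrays without overlap, which in one direction or the other was so for 45.9% of all probe sets. With dim probe sets removed, both passed, LBD16 at adjusted p = 0.033 and LBD29 at adjusted p = 0.029. Whether the LBD16 probe set reads the fusion transcript, the mutated gene or both was not tested. LBD18 and LBD33 have no listed probe set here.

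Among the 4 groups without CHX, both LBD genes and PUCHI had their higher levels in the auxin-treated roots. LBD16 averaged 3542 ± 652 in NAA+DEX and 5145 ± 102 in NAA roots, while DEX roots had 411.3 ± 36 and mock roots 474.1 ± 42.7 (SD, n = 2 each). LBD29 averaged 3980 ± 404 in NAA+DEX and 6361 ± 481 in NAA roots, beside 140.3 ± 38.1 in DEX and 317.7 ± 32.1 in mock roots. PUCHI followed another order. It averaged 1517 ± 4.61 in NAA+DEX and 533.9 ± 54.7 in NAA roots, beside 109.3 ± 1.53 in DEX and 55.12 ± 11.9 in mock roots, so its highest level was in roots that had both compounds. In NAA against mock, which shares the NAA arrays and called 13.4% of all probe sets (7.3% higher and 6.07% lower), LBD16 rose by 3.40 on the log2 scale, LBD29 by 4.26 and PUCHI by 2.96, at adjusted p of 1.5e-07, 1.4e-07 and 3.9e-07.

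The lists of auxin response genes had few measured members. GH3 enzymes join auxin and related acids to amino acids, and 1 of 5 measured was called (20%, beside 2.93% of all probe sets), which was GH3.1. GH3.1 had 4117 and 3484 in NAA+DEX roots, against 1488 and 1565 in NAA roots, and rose by 1.3 on the log2 scale (SE 0.192, adjusted p = 0.0039, and 0.078 in the 4 arrays alone). GH3.17 had a log2 change of 0.67 that did not pass (SE 0.175, adjusted p = 0.072), and GH3.3, brightest of the 5, had a change of -0.015 (SE 0.235). The list's median log2 change was 0.556.

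None of the 7 measured Aux/IAA repressor genes, which restrain auxin response factors, passed in either direction. IAA30 had a log2 change of -0.91 (SE 0.268, adjusted p = 0.11) and IAA20 one of 0.55 (SE 0.222, adjusted p = 0.27). IAA30 passed with dim probe sets removed (adjusted p = 0.037). HAT2, a homeodomain-leucine zipper gene induced by auxin, was the 1 called member of the 6 measured genes of auxin synthesis, transport and signalling. That call was 16.7% of the list, beside 2.93% of all probe sets. HAT2 had 863.7 and 991.8 in NAA+DEX roots, against 1652 and 1605 in NAA roots, and fell by 0.80 (SE 0.124, adjusted p = 0.0049). Without NAA+DEX replicate 1 it missed the threshold (adjusted p = 0.054), as it did in the 4 arrays alone (adjusted p = 0.14).

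Of the 5 measured AP2/ERF factors, PUCHI rose and tny fell (40%, beside 2.93% of all probe sets). The tny gene encodes TINY, a factor of the DREB branch of this family. It had 150.8 and 158.5 in NAA+DEX roots, against 395.9 and 450.5 in NAA roots, a log2 change of -1.36 (SE 0.126, adjusted p = 0.00022, and 0.075 in the 4 arrays alone). TINY2, its close relative, was dim on all 4 arrays, with 17.94 and 18.08 in NAA+DEX roots against 34.06 and 37.54 in NAA roots, and did not pass (adjusted p = 0.1). The stem-cell factor BBM had a log2 change of 0.12 (SE 0.267).

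Cell wall genes included some of the clearest named changes. Expansins loosen the wall so that cells can enlarge, and 5 of the 19 measured were called, 2 higher and 3 lower (26.3%, beside 2.93% of all probe sets). EXPA15 had 3794 and 3560 in NAA+DEX roots, against 799.3 and 893.6 in NAA roots. The arrays of each group lay close together, and EXPA15 rose 4.29-fold (log2 change 2.1, SE 0.133, adjusted p = 4.1e-05). EXPA4, the brightest of them, had 11860 and 12160 in NAA+DEX roots, against 5359 and 5297 in NAA roots, a log2 change of 1.17 (SE 0.125, adjusted p = 0.00049). The 14 expansins that were not called had log2 changes near 0, and the median of the whole list was 0.0263.

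The 3 expansin genes that fell are expansin-like genes rather than α-expansins. EXLB1 had 80.96 and 71.78 in NAA+DEX roots, against 392.3 and 415.3 in NAA roots, and fell by 2.19 on the log2 scale (SE 0.321, adjusted p = 0.0038). EXLA3 was dim, with 7.05 and 9.046 in NAA+DEX roots against 33.33 and 44.07 in NAA roots (log2 change -1.18, SE 0.15, adjusted p = 0.0016). EXLA1, its neighbour on the chromosome, had 428.5 and 502.8 in NAA+DEX roots against 796.5 and 697.9 in NAA roots (log2 change -0.67, SE 0.144, adjusted p = 0.032). EXLA1 missed the threshold without any one of the 4 arrays, at adjusted p between 0.062 and 0.21, and after median centring (adjusted p = 0.051). In the 4 arrays alone EXPA4, EXLA3 and EXLA1 did not pass, at adjusted p of 0.078, 0.098 and 0.21.

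The XTH enzymes cut and rejoin xyloglucan chains of the wall. Of 10 measured, 2 were lower and 1 was higher (30%, beside 2.93% of all probe sets), and the median log2 change was -0.627. XTH20 had 182.6 and 242 in NAA+DEX roots, against 584.6 and 673 in NAA roots, and fell by 1.51 (SE 0.171, adjusted p = 0.00076). XTH32 had 207.7 and 196.3 in NAA+DEX roots, against 388.8 and 481.9 in NAA roots, and fell by 1.04 (SE 0.15, adjusted p = 0.0033). XTH16 had 78.62 and 87.43 in NAA+DEX roots, against 34.23 and 42.02 in NAA roots, and rose by 0.87 (SE 0.155, adjusted p = 0.012). XTH16 missed the threshold without NAA replicate 1 (adjusted p = 0.1) and without NAA+DEX replicate 2 (adjusted p = 0.083). XTH18 and XTH26 had log2 changes of -0.996 and -0.81 that did not pass (adjusted p = 0.064 and 0.057), and in the 4 arrays alone none of XTH20, XTH32 and XTH16 passed (adjusted p between 0.084 and 0.13).

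Of 37 measured genes of wall polysaccharide synthesis and acetylation, 2 were called higher and 1 lower (8.11%, beside 2.93% of all probe sets), all of them members of the TBL family of polysaccharide O-acetyltransferases and their relatives. TBL36 had 3396 and 3220 in NAA+DEX roots, against 842.4 and 979 in NAA roots, and rose by 1.85 on the log2 scale (SE 0.193, adjusted p = 0.00046). TBL21 had 288.2 and 300.5 in NAA+DEX roots, against 121.2 and 131.5 in NAA roots, and rose by 1.12 (SE 0.14, adjusted p = 0.0014, and 0.08 in the 4 arrays alone). TBL38 had 209.8 and 215.5 in NAA+DEX roots, against 341.3 and 327.8 in NAA roots, and fell by 0.62 (SE 0.135, adjusted p = 0.034). TBL38 missed the threshold without any one of the 4 arrays (adjusted p between 0.12 and 0.17) and after median centring (adjusted p = 0.066). No gene among the 4 measured pectin-modifying enzymes passed. These were matched by name, so the count does not speak for pectin-modifying genes listed by locus alone.

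A pair of family 9 glycosyl hydrolases, enzymes that act on β-glucan chains, also rose. They were picked out after their values were seen, as were all genes described here that belong to no list and are not among the 15 largest changes in either direction. GH9C2 had 9530 and 8925 in NAA+DEX roots, against 3693 and 3214 in NAA roots, and rose by 1.42 (SE 0.12, adjusted p = 0.00015). GH9B8 had 938.6 and 932.9 in NAA+DEX roots, against 556.5 and 477 in NAA roots, and rose by 0.84 (SE 0.155, adjusted p = 0.015). GH9C2 passed with each array left out in turn. GH9B8 did so only without NAA replicate 1, and was at adjusted p = 0.11 without NAA replicate 2, 0.088 without NAA+DEX replicate 1 and 0.074 without NAA+DEX replicate 2. The peroxidase gene PRX25 (AT2G41480), of a family that acts on wall polymers and reactive oxygen, fell by 1.58 on the log2 scale (adjusted p = 0.00065, and 0.079 in the 4 arrays alone). It was the 1 called of 6 measured peroxidases matched by name (16.7%, beside 2.93% of all probe sets). Peroxidase genes listed by locus alone were not counted.

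The 15 largest rises among probe sets of exactly 1 gene were led by AT5G52390. It had 871.7 and 861.7 in NAA+DEX roots, against 27.6 and 43.02 in NAA roots, a 17.4-fold difference (log2 change 4.12, SE 0.302, adjusted p = 0.00011). AT1G05577 had 246.9 and 159.5 in NAA+DEX roots, against 14.37 and 3.402 in NAA roots (log2 change 3.15, SE 0.334, adjusted p = 0.00049). AT3G57950 had 1218 and 1180 in NAA+DEX roots, against 123 and 164.3 in NAA roots (log2 change 2.94, SE 0.279, adjusted p = 0.00023). With auxin alone AT5G52390 and AT1G05577 were dim, and AT3G57950 was the 1 of the 3 to pass an intensity of 1000 with DEX. The reference table gives them no name beyond the locus, as it does for all of the 15 except EXPA15, so no function is assigned here.

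Among the largest rises, AT1G30760 was bright with auxin alone, whereas AT5G17340 and AT3G59850 were near the median of the arrays. AT1G30760 had 4279 and 4362 in NAA+DEX roots, against 821.6 and 866.9 in NAA roots (log2 change 2.33, SE 0.245, adjusted p = 0.00046). With a pseudocount of 1 in place of 16 it missed the threshold (adjusted p = 0.082). AT5G17340 had 1449 and 1615 in NAA+DEX roots, against 271.7 and 239.9 in NAA roots (log2 change 2.51, SE 0.171, adjusted p = 7e-05). AT3G59850 had 984.2 and 1137 in NAA+DEX roots, against 180.2 and 233 in NAA roots (log2 change 2.28, SE 0.193, adjusted p = 0.00015). No array of one group reached a level of the other in any of these, which the choice of the genes required.

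The other rises of the 15 ran between 1.95 and 2.77 on the log2 scale, in AT2G03740, AT4G02170, AT5G02540, AT3G05470, AT5G11070, AT5G17350, AT3G15670 and AT1G10640. AT3G15670 was the dimmest, with 56.55 and 52.97 in NAA+DEX roots against 2.439 and 2.02 in NAA roots, and missed the threshold without NAA replicate 1 (adjusted p = 0.051). AT2G03740 varied between the arrays with auxin alone, at 274.9 and 295.4 in NAA+DEX roots against 11.56 and 54.59 in NAA roots. In the 4 arrays alone AT1G05577, AT2G03740, AT4G02170, AT3G05470 and AT1G10640 did not pass, at adjusted p between 0.052 and 0.12, whereas EXPA15 and AT5G17340 did.

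**Figure D2:**
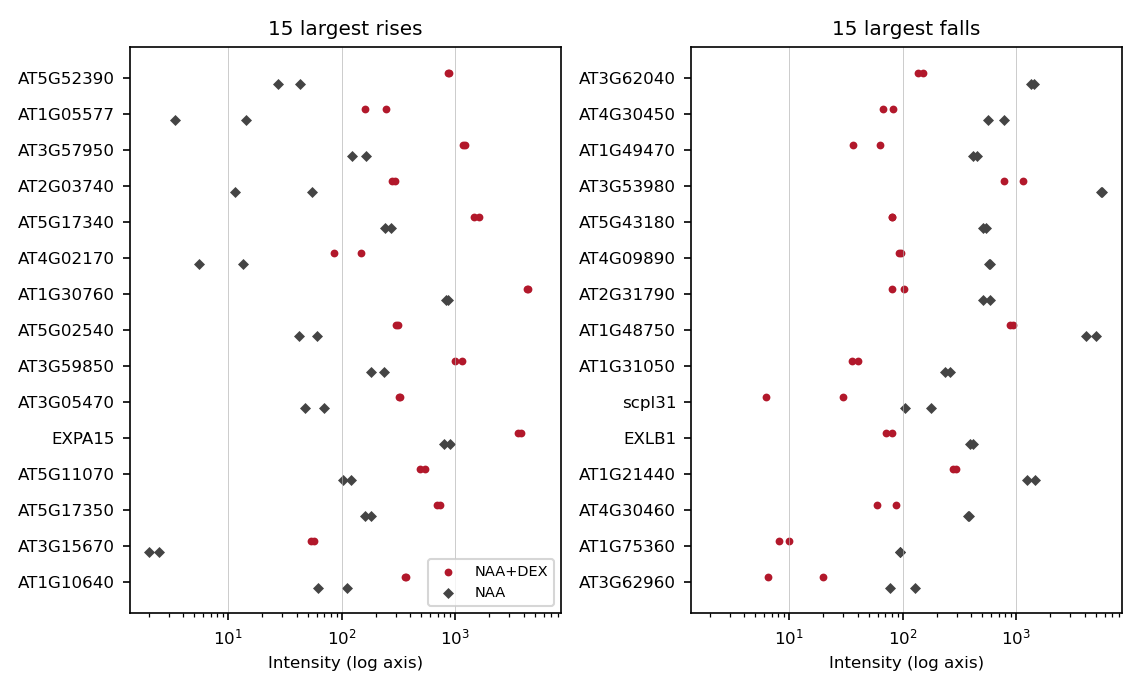
Intensity on each array (horizontal log axis) for the 15 largest rises (left) and 15 largest falls (right) among called probe sets of exactly 1 gene. Red circles are the 2 NAA+DEX arrays and grey diamonds the 2 NAA arrays, drawn just below them. In no gene do the arrays of the groups overlap, which the choice of the genes required.

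The largest fall was that of AT3G62040. It had 151 and 137.1 in NAA+DEX roots, against 1422 and 1355 in NAA roots, an 8.78-fold difference (log2 change -3.13, SE 0.251, adjusted p = 0.00013). AT4G30450 had 67.51 and 81.89 in NAA+DEX roots, against 566.6 and 781.7 in NAA roots (log2 change -2.92, SE 0.159, adjusted p = 3.4e-05). AT3G53980, the brightest of the 15 with auxin alone, had 1142 and 771.1 in NAA+DEX roots, against 5735 and 5546 in NAA roots (log2 change -2.57, SE 0.243, adjusted p = 0.00023). AT3G53980 missed the threshold narrowly in the 4 arrays alone (adjusted p = 0.052), and the other 2 passed there. None of these 3 genes has a name in the reference table.

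AT1G48750 had 882.4 and 935.1 in NAA+DEX roots, against 5019 and 4139 in NAA roots (log2 change -2.31, SE 0.206, adjusted p = 0.00018). AT1G49470, with 36.17 and 62.61 in NAA+DEX roots against 419.4 and 447.6 in NAA roots, fell close to background (log2 change -2.81, SE 0.245, adjusted p = 0.00017). AT1G31050 fell on both of its probe sets, by 2.29 and 2.02 on the log2 scale, and the second missed the threshold without NAA replicate 1 (adjusted p = 0.065) or NAA+DEX replicate 1 (adjusted p = 0.08). The others that fell were AT5G43180, AT4G09890, AT2G31790, AT1G21440, AT4G30460, AT1G75360 and AT3G62960, by 2.03 to 2.51, together with EXLB1 and scpl31.

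The gene scpl31, a serine carboxypeptidase-like gene, had 29.45 and 6.205 in NAA+DEX roots against 103.7 and 176.5 in NAA roots (log2 change -2.26, SE 0.359, adjusted p = 0.0058). It missed the threshold without NAA replicate 2 (adjusted p = 0.061), and AT2G31790 missed it without NAA replicate 1 (adjusted p = 0.052). AT5G43180 was at adjusted p = 0.0045, and at 0.25 with a pseudocount of 1. In the 4 arrays alone AT4G30460, AT3G62960 and scpl31 did not pass, at adjusted p of 0.056, 0.12 and 0.14. Of 29 measured serine carboxypeptidase-like genes, 1 was called higher and 1 lower (6.9%, beside 2.93% of all probe sets), and the median log2 change was -0.0368. The 1 that rose, scpl28, had 2085 and 2045 in NAA+DEX roots against 1072 and 801.1 in NAA roots (log2 change 1.14, adjusted p = 0.0075), and missed the threshold without NAA replicate 2 (adjusted p = 0.071) or NAA+DEX replicate 1 (adjusted p = 0.056).

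Specialised metabolism was represented by genes of the glucosinolate pathway, which makes sulphur-rich defence compounds. Of 6 measured genes matched by name, 2 were lower and none was higher (33.3%, beside 2.93% of all probe sets). Pathway genes listed by locus alone were not counted. BCAT4, the aminotransferase that starts the chain elongation of methionine for these compounds, had 375.9 and 416.2 in NAA+DEX roots, against 1456 and 1656 in NAA roots, and fell by 1.93 (SE 0.183, adjusted p = 0.00023). UGT74B1, the glucosyltransferase of a later step, had 666.1 and 586.2 in NAA+DEX roots, against 1406 and 1512 in NAA roots, and fell by 1.20 (SE 0.187, adjusted p = 0.0052). The transporter genes GTR1 and GTR2 had log2 changes of -0.09 (SE 0.174) and 0.09 (SE 0.14), and neither passed. UGT74B1 did not pass in the 4 arrays alone (adjusted p = 0.081).

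MYC3, a bHLH factor of jasmonate signalling that also acts on glucosinolate genes, had 112.5 and 156.2 in NAA+DEX roots against 271.9 and 219 in NAA roots, and fell by 0.81 (SE 0.181, adjusted p = 0.038). MYC3 was the 1 called member of the 11 measured bHLH genes matched by name (9.09%, beside 2.93% of all probe sets). All 11 had a log2 change below 0 (median -0.197). UPB1, a called bHLH gene given further on, is not in that list. The call was lost without NAA replicate 1 (adjusted p = 0.24), NAA replicate 2 (adjusted p = 0.071) or NAA+DEX replicate 1 (adjusted p = 0.25), and after quantile normalization (adjusted p = 0.065) or median centring (adjusted p = 0.06). Its relative MYC4 had a log2 change of -0.76 that did not pass (SE 0.378, adjusted p = 0.38).

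Of 51 UGT glycosyltransferases measured, 3 were lower and 1 higher (7.84%, beside 2.93% of all probe sets), with a median log2 change of -0.247. Besides UGT74B1, UGT76C2, which glucosylates cytokinins, had 142.3 and 177 in NAA+DEX roots against 325.4 and 406.9 in NAA roots (log2 change -1.12, SE 0.187, adjusted p = 0.0077). UGT71C5, which glucosylates abscisic acid, had 360.2 and 332.9 in NAA+DEX roots against 619.8 and 519 in NAA roots (log2 change -0.69, SE 0.129, adjusted p = 0.016). UGT84A4 was the 1 that rose, with 2315 and 1872 in NAA+DEX roots against 1237 and 1358 in NAA roots (log2 change 0.68, SE 0.155, adjusted p = 0.042). UGT76C2 missed the threshold without NAA replicate 2 (adjusted p = 0.073) or NAA+DEX replicate 1 (adjusted p = 0.08). UGT71C5 missed it without NAA replicate 1 (adjusted p = 0.13), NAA+DEX replicate 1 (adjusted p = 0.062) or NAA+DEX replicate 2 (adjusted p = 0.1), and UGT84A4 without any one of the 4 arrays (adjusted p between 0.055 and 0.26).

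Among glutathione transferases, which conjugate reactive compounds, 1 of 14 was called lower and 1 higher (14.3%, beside 2.93% of all probe sets). GSTU20 had 576.3 and 535.6 in NAA+DEX roots, against 1308 and 1441 in NAA roots, and fell by 1.28 (SE 0.208, adjusted p = 0.0064). GSTU28 had 251.1 and 215.1 in NAA+DEX roots, against 80.68 and 131.4 in NAA roots, and rose by 1.06 (SE 0.213, adjusted p = 0.022). GSTU20 missed the threshold without NAA replicate 2 (adjusted p = 0.058) or NAA+DEX replicate 2 (adjusted p = 0.052). GSTU28 missed it without NAA replicate 1 (adjusted p = 0.16), NAA+DEX replicate 1 (adjusted p = 0.15) or NAA+DEX replicate 2 (adjusted p = 0.068). Of 24 cytochrome P450 genes, CYP71B34 and CYP71B37 were lower, by 0.84 and 0.93 on the log2 scale, and none was higher (8.33%). Both missed the threshold whichever of the 4 arrays was left out, at adjusted p between 0.1 and 0.17 for CYP71B34 and between 0.11 and 0.23 for CYP71B37.

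Other enzymes with names fell by more than 2-fold and kept their call with each array left out. MSRB5, which repairs oxidised methionine, had 1225 and 963.2 in NAA+DEX roots, against 4234 and 4278 in NAA roots (log2 change -1.95, SE 0.188, adjusted p = 0.00025). The gene listed as FMO, a flavin monooxygenase, had 271.1 and 223.8 in NAA+DEX roots, against 687.6 and 795.4 in NAA roots (log2 change -1.53, SE 0.171, adjusted p = 0.00069). BAT1, an acyltransferase of brassinosteroids, had 1135 and 986.4 in NAA+DEX roots, against 2409 and 2009 in NAA roots (log2 change -1.04, SE 0.147, adjusted p = 0.0029). The gene hemf2, named for coproporphyrinogen oxidase, was near background with DEX, at 2.61 and 4.932 in NAA+DEX roots against 66.3 and 50.02 in NAA roots (log2 change -1.90, SE 0.165, adjusted p = 0.00017).

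Regulators outside the lists included genes known from organ formation. AGO7, an Argonaute of the trans-acting siRNA pathway, had 269.6 and 185.4 in NAA+DEX roots against 71.92 and 77.28 in NAA roots (log2 change 1.40, SE 0.261, adjusted p = 0.015). LAS, a GRAS factor of axillary meristems, had 436.5 and 422.2 in NAA+DEX roots against 247.6 and 181 in NAA roots (log2 change 0.97, SE 0.184, adjusted p = 0.017). SHI, a zinc-finger factor of a family that acts on auxin synthesis, had 87.65 and 94.5 in NAA+DEX roots against 30.72 and 33.28 in NAA roots (log2 change 1.16, SE 0.256, adjusted p = 0.035). All 3 were higher on both DEX arrays, but their calls rested on the full set of arrays. AGO7 missed the threshold without NAA replicate 1 (adjusted p = 0.1), NAA replicate 2 (0.072) or NAA+DEX replicate 1 (0.13), LAS without NAA replicate 2 (0.12), NAA+DEX replicate 1 (0.1) or NAA+DEX replicate 2 (0.077), and SHI without any one of the 4 (0.13 to 0.17).

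Growth regulators that fell included UPB1, a bHLH factor that governs the balance of reactive oxygen between dividing and elongating root cells. UPB1 had 326.5 and 357.4 in NAA+DEX roots, against 598.6 and 560.1 in NAA roots (log2 change -0.73, SE 0.164, adjusted p = 0.037). ARL, an ARGOS-like gene of cell expansion, had 477.8 and 532.1 in NAA+DEX roots, against 813.3 and 913.4 in NAA roots (log2 change -0.75, SE 0.152, adjusted p = 0.022). EXO, a brassinosteroid-responsive gene of growth, had 1640 and 1862 in NAA+DEX roots, against 3087 and 2507 in NAA roots (log2 change -0.67, SE 0.153, adjusted p = 0.043). All 3 missed the threshold whichever of the 4 arrays was left out, with adjusted p between 0.1 and 0.2 for UPB1, 0.067 and 0.15 for ARL, and 0.059 and 0.27 for EXO.

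Cell cycle genes were measured for 6 members, of which 1 was called (16.7%, beside 2.93% of all probe sets). PRL, the MCM7 subunit of the helicase that opens DNA for replication, had 1235 and 1147 in NAA+DEX roots, against 782.8 and 698.8 in NAA roots, and rose by 0.67 (SE 0.148, adjusted p = 0.034). It did not pass without any one of the 4 arrays (adjusted p between 0.099 and 0.19) or after median centring (adjusted p = 0.051). AUR1, an Aurora kinase of mitosis, had 1004 and 944.5 in NAA+DEX roots, against 622.3 and 634.3 in NAA roots, a log2 change of 0.62 that did not pass (SE 0.159, adjusted p = 0.07). HTR12, the histone H3 of centromeres, had a log2 change of 0.61 that did not pass (SE 0.214, adjusted p = 0.19). The median of the 6 was 0.466, against -0.0155 over all probe sets, and the lowest of them, AUR3, stood at 0.000646.

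Of 30 secreted peptide genes 2 were called, both lower (6.67%, beside 2.93% of all probe sets). LCR69, a defensin-like gene, had 4573 and 4278 in NAA+DEX roots, against 9984 and 9595 in NAA roots (log2 change -1.14, SE 0.172, adjusted p = 0.0043, and 0.078 in the 4 arrays alone). RALFL32, of a family of peptides that alkalinise the wall space, had 1642 and 1552 in NAA+DEX roots, against 2991 and 2885 in NAA roots (log2 change -0.87, SE 0.154, adjusted p = 0.011). RALFL32 missed the threshold without any one of the 4 arrays (adjusted p between 0.056 and 0.082). Of 21 ion, nitrate and water transporters 1 rose (4.76%), NPF4.4 (AT1G33440), by 0.84 (adjusted p = 0.029). NPF4.4 too did not pass without any one of the 4 arrays.

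Many lists held no called gene among the members matched by name, which can leave out relatives listed by locus alone. Besides those already given, and the single ethylene and NAC genes and 2 receptor-like kinases measured, these were the 2 root hair, 6 vascular, 6 cytokinin, 11 abscisic acid and dehydration, 8 rapid stress, 19 sugar and amino acid transporter, 14 U-box and F-box, 4 gibberellin and brassinosteroid, and 3 lipid transfer genes measured. The root hair genes EXPA7 and EXPA18 summed to 2615 and 2844 in NAA+DEX roots and to 3092 and 2876 in NAA roots, and the 6 vascular genes to 1457 and 1500 in NAA+DEX roots and to 1524 and 1510 in NAA roots. The brassinosteroid receptor gene BRL1 came nearest to a call among these lists, with 580.2 and 538.4 in NAA+DEX roots against 267.9 and 243.6 in NAA roots (log2 change 1.08, SE 0.3, adjusted p = 0.091). It passed with a pseudocount of 64 (adjusted p = 0.00084). WRKY53 had a log2 change of -1.07 that did not pass (adjusted p = 0.16) except without NAA+DEX replicate 2 (log2 change -1.74, adjusted p = 0.013).

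**Figure D3:**
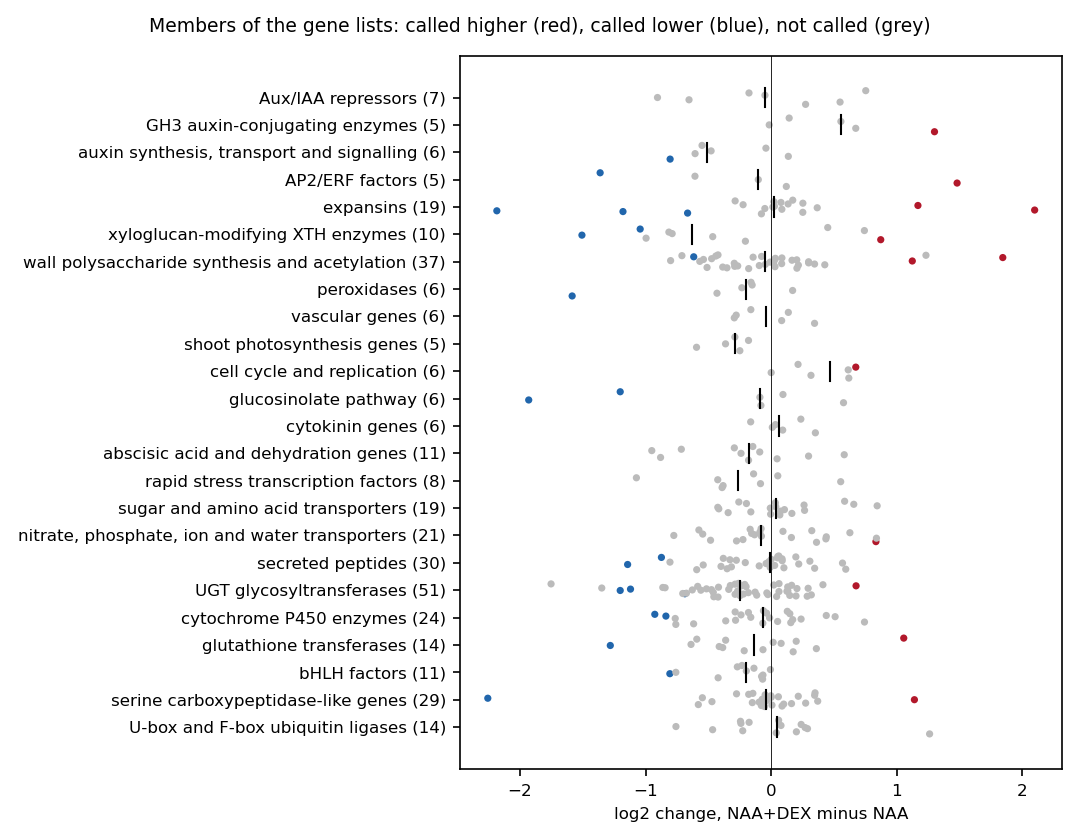
Log2 change (NAA+DEX minus NAA) of each measured gene in the lists with at least 5 measured members, whose number stands in brackets. Red points were called higher, blue points lower and grey points not called, and the black bars are list medians. Most members of every list lie within 1 log2 unit of 0, with expansins spread widest to both sides.

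The effect of DEX was next set against that in roots without auxin, using arrays that the NAA+DEX and NAA groups do not share. DEX against mock called 12 probe sets in all (0.0528%), 9 higher (0.0396%) and 3 lower (0.0132%). Of the 277 probe sets higher with DEX in auxin-treated roots, 154 (55.6%) were also above 0 in DEX against mock, where 44.4% of all probe sets lay above 0. Of the 390 lower ones, 254 (65.1%) were below 0, as were 55.6% of all probe sets. The medians in DEX against mock were 0.0568 for the higher and -0.102 for the lower set, beside -0.0311 for all. Only 4 of the 667 were called in the same direction in DEX against mock. AT1G72540 was called in opposite directions, with log2 changes of 1.1 in NAA+DEX against NAA and -1.29 in DEX against mock (adjusted p = 0.02).

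The DEX by NAA interaction, which tests whether the effect of DEX differed with auxin, called 187 probe sets (0.822%). The effect was more positive with NAA for 90 (0.396%) and more negative for 97 (0.426%), and 170 of the 187 had themselves changed in NAA+DEX against NAA. Those more positive with NAA had a median log2 change of 1.41 in NAA+DEX against NAA, and of -0.148 in DEX against mock. Those more negative had medians of -1.36 and 0.127 in the same comparisons. Both sets were chosen on the difference between these changes, so a gap between the medians was built in. The count ranged widely with single arrays, at 377 without mock replicate 2, 90 without mock replicate 1, 95 without DEX replicate 2, 89 without NAA replicate 1, 95 without NAA replicate 2, 91 without NAA+DEX replicate 1 and 119 without NAA+DEX replicate 2.

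AT3G62040 and EXPA15 show how such genes behaved. AT3G62040 had 151 and 137.1 in NAA+DEX and 1422 and 1355 in NAA roots, beside 2285 and 2557 in DEX and 2198 and 2464 in mock roots. The DEX and mock arrays overlapped at a high level, and the interaction was -3.19 (SE 0.355, adjusted p = 0.003). EXPA15 had 3794 and 3560 in NAA+DEX and 799.3 and 893.6 in NAA roots, beside 1911 and 1850 in DEX and 1801 and 1903 in mock roots. Its level was thus lowest with auxin alone and highest with auxin and DEX together, and the interaction was 2.08 (SE 0.189, adjusted p = 0.0013).

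BCAT4, AT4G30450 and AT3G53980 had their lowest level among these 4 groups where both compounds were given. BCAT4 had 375.9 and 416.2 in NAA+DEX and 1456 and 1656 in NAA roots, beside 3415 and 3225 in DEX and 3424 and 3617 in mock roots (interaction -1.85, adjusted p = 0.0096). AT4G30450 had 67.51 and 81.89 in NAA+DEX and 566.6 and 781.7 in NAA roots, beside 2302 and 2432 in DEX and 2650 and 2780 in mock roots (interaction -2.72, SE 0.225, adjusted p = 0.0013). AT3G53980 had 1142 and 771.1 in NAA+DEX and 5735 and 5546 in NAA roots, beside 11050 and 9725 in DEX and 9951 and 10010 in mock roots (interaction -2.62, SE 0.344, adjusted p = 0.0073). In all 3, DEX and mock roots lay close together and well above both auxin-treated groups.

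AT1G75360 and AT3G62960 were dim without auxin. AT1G75360 had 8.191 and 10.02 in NAA+DEX and 94.14 and 94.78 in NAA roots, beside 5.443 and 5.62 in DEX and 4.947 and 10.17 in mock roots (interaction -2.02, SE 0.299, adjusted p = 0.012). AT3G62960 had 6.45 and 19.91 in NAA+DEX and 76.62 and 129 in NAA roots, beside 7.374 and 3.084 in DEX and 2.072 and 2.661 in mock roots (interaction -2.23, SE 0.346, adjusted p = 0.015). AT1G75360 missed the threshold for this difference without mock replicate 1 (adjusted p = 0.053) or NAA+DEX replicate 1 (adjusted p = 0.052), and AT3G62960 without DEX replicate 1 (adjusted p = 0.055) or mock replicate 1 (adjusted p = 0.061). In both, the roots with auxin alone were the ones that stood apart among these 4 groups. The factor gene tny had an interaction of -1.65 (adjusted p = 0.0028).

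PUCHI and AT1G30760 differed from these. PUCHI had a log2 change of 0.83 in DEX against mock that did not pass (adjusted p = 0.12), and its interaction of 0.65 did not pass either (adjusted p = 0.26). AT1G30760 had 4279 and 4362 in NAA+DEX and 821.6 and 866.9 in NAA roots, beside 315.6 and 312.9 in DEX and 83.02 and 99.84 in mock roots. Its change in DEX against mock was 1.63 on the log2 scale (SE 0.245, adjusted p = 0.054) and its interaction 0.71 (SE 0.346, adjusted p = 0.49). A p that misses the threshold does not show that the effects were equal.

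**Figure D4:**
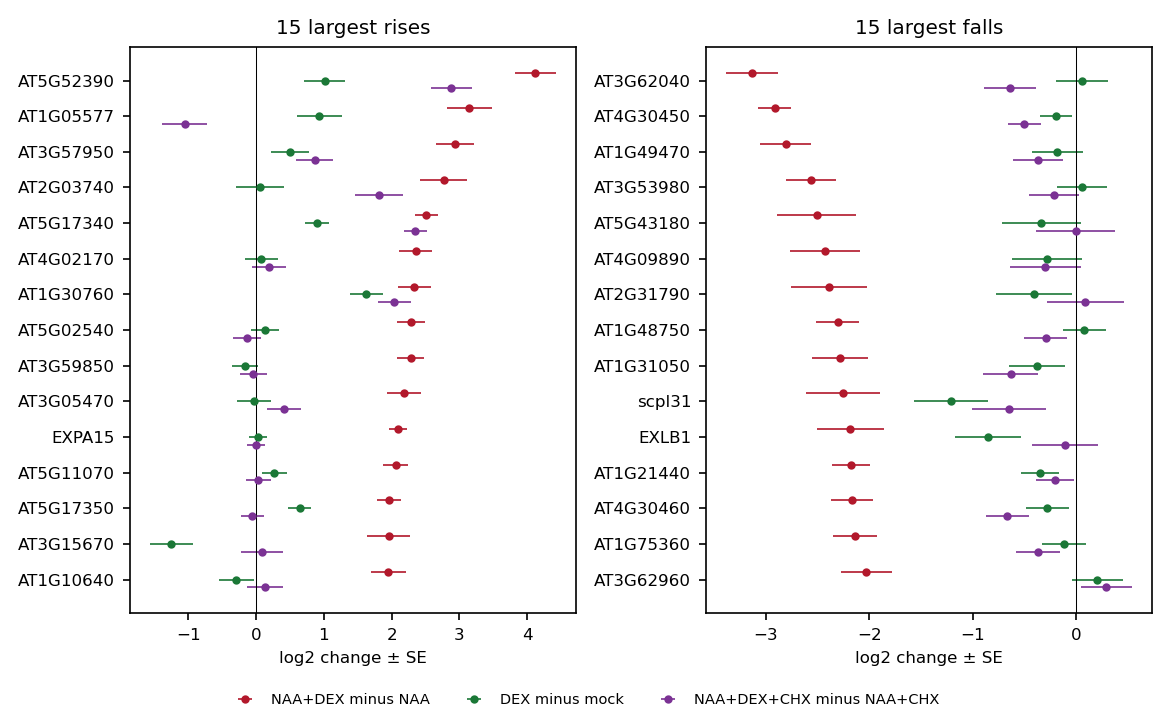
Log2 changes with their SE for the 15 largest rises (left) and falls (right), in NAA+DEX minus NAA (red), DEX minus mock (green) and NAA+DEX+CHX minus NAA+CHX (purple). The genes were chosen on the red values. Most green and purple points lie nearer to 0, while AT5G52390, AT5G17340 and AT1G30760 keep a purple value above 2.

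With protein synthesis blocked, fewer probe sets were called for DEX in auxin-treated roots. NAA+DEX+CHX against NAA+CHX called 25 probe sets (0.11%), 21 higher (0.0923%) and 4 lower (0.0176%), from arrays that the NAA+DEX and NAA groups do not share. Of the 277 probe sets higher without CHX, 167 (60.3%) were above 0 with CHX, where 45.5% of all probe sets lay above 0, and 9 were called. Of the 390 lower ones, 269 (69.0%) were below 0, as were 54.5% of all, and 1 was called. The set medians with CHX were 0.0619 and -0.106 on the log2 scale, beside -0.022 for all probe sets.

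**Figure D5:**
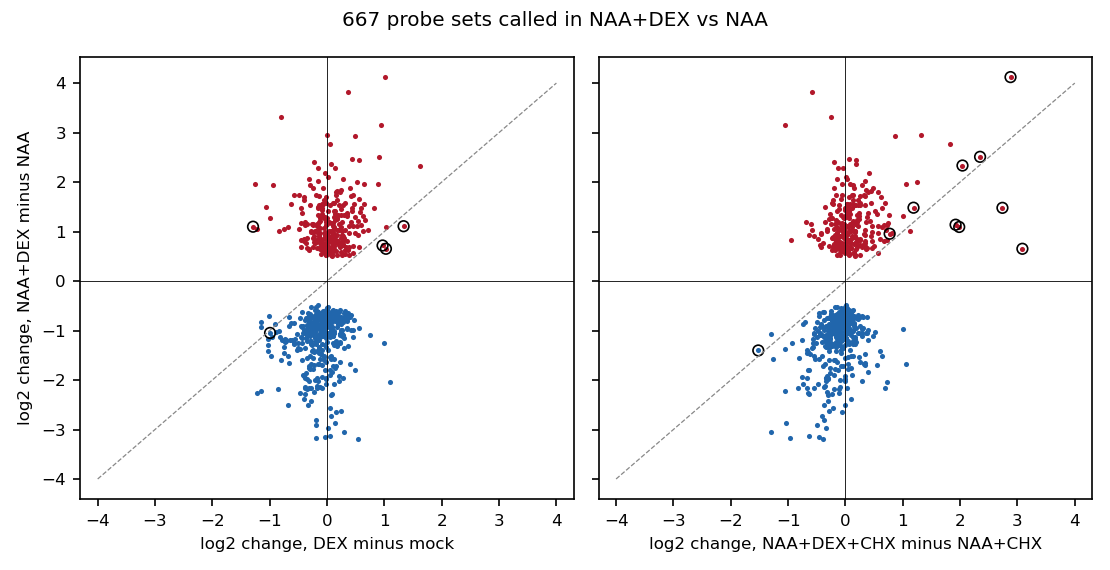
The 667 probe sets called in NAA+DEX against NAA, with that log2 change on the vertical axis and, on the horizontal axes, the log2 change in DEX minus mock (left) and in NAA+DEX+CHX minus NAA+CHX (right). Red and blue mark higher and lower in NAA+DEX, open circles mark probe sets also called in the comparison on the horizontal axis, and the dashed line marks equal change. Most points stand close to the vertical 0 line, and the 10 open circles on the right share the direction of the change in NAA+DEX roots.

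The named genes that rose under both conditions included PUCHI. It had 775.6 and 670.2 in NAA+DEX+CHX roots, against 297.1 and 318.6 in NAA+CHX roots (log2 change 1.19, adjusted p = 0.012). AT5G17340 had 221.2 and 222.5 in NAA+DEX+CHX roots, against 32.43 and 29.09 in NAA+CHX roots (log2 change 2.35, SE 0.171, adjusted p = 0.00024), close to its change of 2.51 without CHX. AT5G52390 had 254.1 and 158.5 in NAA+DEX+CHX roots, against 5.659 and 24.22 in NAA+CHX roots (log2 change 2.88, SE 0.302, adjusted p = 0.0035). AT1G30760 rose by 2.04 with CHX (SE 0.245, adjusted p = 0.0088), though its intensities there were 54.82 and 80.41 in NAA+DEX+CHX roots against 1.219 and 7.431 in NAA+CHX roots, far below those without CHX.

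AT1G64405 responded more with CHX than without. It had 4676 and 4993 in NAA+DEX roots, against 3123 and 3017 in NAA roots, and 594.6 and 582.9 in NAA+DEX+CHX roots, against 52.91 and 57.63 in NAA+CHX roots. The log2 change was 0.65 without CHX (adjusted p = 0.034, and 0.12 to 0.16 whichever of the 4 arrays was left out) and 3.09 with it (SE 0.143, adjusted p = 5.7e-06), and the difference of -2.43 passed (SE 0.202, adjusted p = 0.0026). AT1G03820 and AT4G37295, chosen after their values were seen, also rose in both comparisons, AT1G03820 by 1.48 without and 2.74 with CHX, and AT4G37295 by 1.09 without and 1.98 with CHX. The differences between the conditions did not pass for AT1G03820 (adjusted p = 0.081) or AT4G37295 (adjusted p = 0.15).

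The DEX by CHX interaction in auxin-treated roots called 152 probe sets (0.668%), 77 more positive without CHX (0.339%) and 75 more negative (0.33%). Of the 152, 136 had changed in NAA+DEX against NAA. The 77 had median log2 changes of 1.28 without CHX and -0.137 with it, and the 75 had medians of -1.60 and 0.0215. Here too the sets were chosen on the difference between these changes, so a gap between the medians was built in. The count fell to between 52 and 81 with any one of the 8 arrays of this interaction left out, and to 94 with the replicate number as a block. Both interactions were called for 96 of the 667 probe sets, 45 that rose and 51 that fell.

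EXPA15 had no detectable effect of DEX under CHX, at a level that was high in both groups. It had 3159 and 2491 in NAA+DEX+CHX roots, against 2698 and 2904 in NAA+CHX roots, a log2 change of 0.0033 (SE 0.133), and the interaction was 2.1 (SE 0.189, adjusted p = 0.0027). AT3G59850 had 98.58 and 78.47 in NAA+DEX+CHX roots, against 98.83 and 83.59 in NAA+CHX roots (interaction 2.32, SE 0.273, adjusted p = 0.0065). AT4G02170 had 1420 and 1964 in NAA+DEX+CHX roots, against 1539 and 1393 in NAA+CHX roots, far above the 85.28 and 148.2 of NAA+DEX roots without CHX. The roots with CHX thus began from levels unlike those without it, in some genes higher and in others lower.

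AT3G62040 and AT3G53980, among the largest falls, were far lower in both groups that had CHX than in NAA roots, and BCAT4 was lower too. This did not hold for all of the 15, since AT3G62960 had 625.4 and 661.1 in NAA+DEX+CHX roots and 522.4 and 523.5 in NAA+CHX roots. AT3G62040 had 38.73 and 87.45 in NAA+DEX+CHX roots, against 83.89 and 122.1 in NAA+CHX roots, levels that overlap. AT3G53980 had 141.4 and 213.4 in NAA+DEX+CHX roots, against 166.8 and 251.3 in NAA+CHX roots, while NAA roots without CHX were at 5735 and 5546. BCAT4 had 195.2 and 196.6 in NAA+DEX+CHX roots, against 328.7 and 357.9 in NAA+CHX roots (log2 change -0.76), and its interaction did not pass (adjusted p = 0.084). The part of these different starting levels in the interaction was not tested.

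Neighbouring genes were looked at in the order of the reference gene table. Of 5878 pairs of adjacent protein-coding genes with both measured, 336 had at least 1 member called and 8 had both. In 6 of the 8 pairs both members moved the same way. Over all probe sets of exactly 1 gene, 330 of 13513 were called. The share of all adjacent pairs that moved the same way was not counted. These few pairs therefore do not show that neighbours responded together more often than other genes. AT3G57950 and AT3G57960 rose by 2.94 and 1.70 on the log2 scale, AT3G15670 and AT3G15680 by 1.96 and 0.87, and AT4G37290 and AT4G37295 by 1.36 and 1.09. AT4G30450 and AT4G30460 fell by 2.92 and 2.17, EXLA3 and EXLA1 by 1.18 and 0.67, and AT2G47550 and AT2G47560 by 1.05 and 1.22. The remaining 2 pairs moved in opposite directions, AT1G05577 rising by 3.15 beside AT1G05575 at -0.65, and AT1G21060 rising by 1.18 beside AT1G21050 at -1.13. In 5 of the 8 pairs at least 1 member lost its call with single arrays left out, and in the pair of AT3G15670 and AT3G15680 both did. AT3G15680, AT2G47560 and EXLA1 did so whichever of the 4 arrays was left out, at adjusted p of 0.089 to 0.11, 0.11 to 0.14 and 0.062 to 0.21, and AT3G15670 did so without NAA replicate 1 (adjusted p = 0.051). In the pairs that moved in opposite directions, AT1G05575 and AT1G21060 missed the threshold without NAA replicate 1 (adjusted p = 0.12 and 0.14), NAA replicate 2 (0.095 and 0.056) or NAA+DEX replicate 2 (0.14 and 0.13). Whether probes of such neighbours share transcripts was not tested.

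The named genes are part of the response. Of the 667 called probe sets, 330 belong to exactly 1 listed gene, 10 to several and 327 to none in the annotation used here. Among those with 1 gene, 18 of the higher and 39 of the lower genes carry a name other than the locus. The counts by gene list therefore describe the listed genes and not the whole response.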

How the data were processed

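Root transcripts were measured on 16 arrays in 8 groups of 2, assigned by title. The deposited values are linear intensities, 1 for each probe set on each array, made with Affymetrix Expression Console 1.3 per the submitters' processing notes. The summary method and background correction are not given in the sources used here. A trimmed mean of 500 on each array (2% off each end) shows scaling array by array in the deposited intensities. The labels name a pair of labelling kits without assigning them.

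Of 22810 probe sets, 64 controls were removed and 22746 tested without a filter as log2 of deposited intensity plus 16. Annotation gave 13513 exactly 1 gene, 503 several and 8730 none. Names came from the platform annotation and the RefSeq table of TAIR10.1. A gene with more than 1 probe set was represented by its brightest. A limma 3.58.1 model (R 4.3.3) of group means over all 16 arrays had 8 residual degrees of freedom and shared the variance estimate between comparisons. Tests were two-sided, with Benjamini-Hochberg adjustment over all probe sets and calls at adjusted p under 0.05. The code was run on simulated data with known changes and independent noise. That run checks the code and does not speak for the error rate in these arrays.

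Named genes were the 15 largest rises and falls among called probe sets of 1 gene with arrays that do not overlap, 5 each way per interaction, LBD16, LBD29 and PUCHI, and up to 6 called members per gene list (2 where none passed). Members and lists were chosen with earlier results of these data known. Deviations of same-numbered arrays correlated at -0.059 to 0.067 over 28 pairs of groups (0.0036 for NAA+DEX with NAA), so replicates were not paired. Alternatives were other pseudocounts, scalings, a filter, priors, array weights, a replicate block and arrays left out. A search of promoters for motifs was not run, since no promoter sequence was used here.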

Additional observations from a re-analysis of the deposited data

Results flagged for a closer look

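The effect of DEX differed between roots with and without NAA, by the interaction term of the limma model, for the genes with the largest such differences. On the log2 scale, the effect with NAA minus that without was 3.21 for AT3G15670 (adjusted p = 0.0094), 3.11 for AT5G52390 (0.0092), 2.71 for AT2G03740 (0.03), 2.44 for AT3G57950 (0.017) and 2.44 for AT3G59850 (0.003). It was -3.19 for AT3G62040 (0.003), -2.72 for AT4G30450 (0.0013), -2.63 for AT1G49470 (0.0075), -2.62 for AT3G53980 (0.0073) and -2.38 for AT1G48750 (0.0047). AT2G03740 missed the threshold without mock replicate 1, either DEX replicate or either NAA+DEX replicate (adjusted p between 0.073 and 0.11). AT3G57950 missed it without NAA replicate 1, either NAA+DEX replicate, mock replicate 1 or DEX replicate 2 (0.058 to 0.078). AT3G15670 lies below an intensity of 60 on all 8 arrays of this difference, and its mock arrays were 53.6 and 14.22.

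The effect of DEX in auxin-treated roots also differed with CHX, by the interaction term. Without CHX minus with CHX, the difference was 4.2 for AT1G05577 (adjusted p = 0.0061), 2.42 for AT5G02540 (0.0071), 2.32 for AT3G59850 (0.0065), 2.17 for AT4G02170 (0.022) and 2.13 for LAC16 (0.038). It was -2.49 for AT3G62040 (0.011), -2.44 for AT1G49470 (0.011), -2.43 for AT1G64405 (0.0026), -2.41 for AT4G30450 (0.0027) and -2.35 for AT3G53980 (0.013). LAC16, a laccase gene, had not passed in NAA+DEX against NAA (log2 change 0.96, adjusted p = 0.097), and its difference missed the threshold with any of 7 arrays left out, at adjusted p between 0.07 and 0.14. AT4G02170 missed it without NAA replicate 1, NAA+DEX replicate 2, either NAA+CHX replicate or NAA+DEX+CHX replicate 1 (0.059 to 0.088). AT3G62040, AT1G49470 and AT3G53980 missed it without NAA replicate 1 or NAA+CHX replicate 1 (0.05 to 0.062).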

How the results depend on the processing

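No result that was called, in the main model or under an alternative, changed direction between them. Changes of sign in genes called in neither were not counted. For NAA+DEX against NAA, 667 calls became 1053 with a pseudocount of 64, 1011 with dim probe sets removed, 1100 with an intensity trend and robust prior, 61 with only the 4 arrays compared and 290 to 406 with 1 array left out. Scaling kept the count near 667, with 666 after quantile normalization (298 higher, 368 lower) and 632 after median centring (306 higher, 326 lower). For the DEX by NAA interaction, 187 calls became 349 with a pseudocount of 64, 322 with the filter, 328 with the trend, 14 with only the arrays compared and 89 to 377 with 1 array left out. For the DEX by CHX interaction, 152 calls became 100 with a pseudocount of 1, 290 with a pseudocount of 64, 231 with the filter, 301 with the trend, 21 with only the arrays compared and 52 to 81 with 1 array left out. With the replicate block, which the labels and the correlations of deviations do not require, the counts were 634, 168 and 94. Under that block CYP71B37, MYC3 and UGT84A4 missed the threshold (adjusted p = 0.063, 0.057 and 0.062). The cause of these shifts was not tested, apart from the fewer arrays or probe sets that some settings use. With 2 arrays a group the number of arrays limits the precision, and dim probe sets have small fitted changes by the added 16.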
